A study of Rattus norvegicus with 6 samples.

Results

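The lower part of glycolysis, from aldolase to lactate dehydrogenase, was described in rat heart muscle through the genes of its muscle and ubiquitous isozymes. The members were chosen by name: Aldoa, Gapdh, Pgk1, Pgam1, Pgam2, Eno1, Eno3, Pkm, Ldha and Ldhb. Of these 10 genes, 9 were found by name among the 32623 genes of the table, and all 9 passed the filter on low values. The expression of Gapdh was not analysed here under that name, and 2 rows described as glyceraldehyde-3-phosphate dehydrogenase are given separately.

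Myocardial tissue of male rats labelled WT was taken from 3 sham samples and 3 samples with 30 min of ischemia, in which the left anterior descending coronary artery had been ligated after a left thoracotomy. The treatment text names no ligation for the sham rats, and strain and age were not given in the sources used here. Total RNA was isolated with Trizol, and libraries were made with a stranded total RNA kit. The sample labels name no animal, while the study describes its experiments as independent, and the p-values measure the spread between these samples.

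Glycolysis splits glucose into pyruvate in the cytosol, and its lower part is where ATP is made without oxygen. Lactate dehydrogenase then turns pyruvate into lactate and restores the NAD+ that the pathway needs when mitochondria lack oxygen. Several of the steps can be carried out by more than 1 isozyme: striated muscle uses the muscle forms Pgam2 and Eno3, most other cells use Pgam1 and Eno1, and the heart form of lactate dehydrogenase, Ldhb, stands beside the form of fast muscle and hypoxic tissue, Ldha.

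Between 68529126 and 79591989 reads were counted per sample, and 17076 to 18096 genes had a count. Some samples stood apart in ways that touch the values below. Sham replicate 1 had 161 counts on chromosome Y against 3218 to 8970 in the other 5 samples, although all were labelled male. Atrial genes (Myl7, Myl4, Sln, Nppa, Bmp10 and Dkk3) summed to 48457 and 39432 FPKM in sham replicates 1 and 3 but to 252 in sham replicate 2, and to 9643, 2084 and 1288 in the ischemia samples. FPKM is a read count divided by gene length and library size. As a check of the labelled tissue, the cardiac myosin gene Myh6 was at 3899 to 4799 FPKM in sham and 437 to 1328 in ischemia. The other ventricular markers of this check overlapped between the groups. In sham, Tnnt2 was at 4482 to 6231 FPKM, Tnni3 at 4490 to 6820, Myl2 at 346 to 2795 and Myl3 at 796 to 9024. In ischemia they were at 2564 to 5694, 2038 to 5306, 594 to 1315 and 3180 to 5780. Fast skeletal muscle genes, Myh4, Mylpf and Tnnt3 among them, summed to 3.98 to 13.5 FPKM over all samples, and Myh1 and Myh2 were not analysed here.

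The 9 genes together took 0.804% to 1.22% of the counts in sham and 0.874% to 1.12% in ischemia. None of them passed the test across all genes (edgeR quasi-likelihood test, adjusted p under 0.05), which called 5.18% of the 13964 tested genes higher in ischemia and 1.53% lower. At an unadjusted p under 0.05 the edgeR count was 1 gene, Pgam2, while DESeq2 and limma on log2(FPKM + 0.1) each called Pgam2 lower after adjustment and limma on log2(FPKM + 1) called 0 of the 9 genes. Over all tested genes DESeq2 called 14.8% higher and 12.5% lower, and limma on log2(FPKM + 0.1) called 6.09% higher and 1.88% lower. The log2 fold change was above 0 for 5 genes and below 0 for 4, with a median of 0.48. Over all tested genes the median was -0.0015 and 49.9% were above 0. With both glyceraldehyde-3-phosphate dehydrogenase rows counted as well, 5 were above 0 and 6 below, and the median was -0.0067. The 2 muscle isozymes Pgam2 and Eno3 had the lowest values, -1.86 and -1.33, and their ubiquitous partners Eno1 and Pgam1 had the highest, 0.87 and 0.63. Adjusted p ranged from 0.0730 for Pgam2 to 0.631 for Aldoa.

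**Figure D1:**
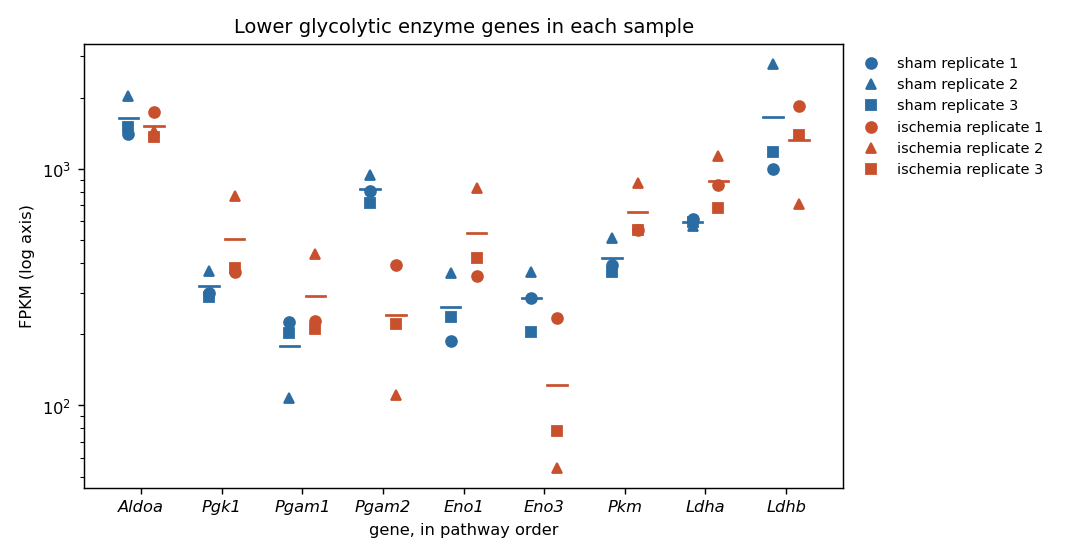
FPKM of the 9 genes (log axis) in each sample, in pathway order, with sham in blue, ischemia in orange, symbols for the replicate number and short lines for group means. Pgam2 lay between 110 and 392 in ischemia and between 717 and 944 in sham, and ischemia replicate 2 was the extreme sample for 8 of the 9 genes.

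Phosphoglycerate mutase moves the phosphate group within phosphoglycerate, and Pgam2 encodes its muscle subunit. Pgam2 (chr14:86044969-86047162, minus strand, as the table lists it) measured 806, 944 and 717 FPKM in sham samples 1, 2 and 3, and 392, 110 and 221 in ischemia samples 1, 2 and 3. All ischemia samples were below all sham samples, with ischemia replicate 1 nearest to sham and replicate 2 farthest. These levels rested on 45325 to 66620 counts in sham and 7205 to 28126 in ischemia. The means were 822 ± 114 and 241 ± 142 FPKM (SD, n = 3 each), and the fitted level was 3.63-fold lower in ischemia, a log2 fold change of -1.86 ± 0.51 (SE). The difference missed the threshold, with an edgeR adjusted p of 0.0730 over all tested genes. An unadjusted p under 0.05 was reached by 14.2% of tested genes in the lower direction and by 18.2% in the higher, and 10.2% of tested genes had a larger fold change in either direction. Without sham replicate 1, the sample with few chromosome Y counts, its log2 fold change was -1.93 (edgeR adjusted p = 0.182). Without ischemia replicate 1 it was -2.41 and passed (edgeR adjusted p = 0.0311), in a fit that called 7.98% of all tested genes lower and 10.7% higher. In bulk tissue, fewer cells of a type and less RNA per cell cannot be told apart.

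Pgam1 (chr1:261158261-261165808, plus strand), the form that most tissues use, measured 225, 108 and 203 FPKM in sham and 227, 437 and 210 in ischemia. Ischemia replicate 2 was the highest and sham replicate 2 the lowest, while the other 4 samples lay between 203 and 227, so the groups overlapped. The log2 fold change was 0.63 ± 0.34 (SE), and edgeR gave an adjusted p of 0.234. Without ischemia replicate 2 it was 0.28.

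Set against each other within a sample, which removes differences in depth and scaling, Pgam2 made up 78.2%, 89.7% and 78.0% of the summed FPKM of both mutase genes in the sham samples. The share was 63.3%, 20.1% and 51.4% in the ischemia samples, so that Pgam2 was the larger part in all sham samples and in ischemia replicates 1 and 3, and the smaller part in ischemia replicate 2. The mean share was 82.0% ± 6.74 in sham and 44.9% ± 22.3 in ischemia (SD, n = 3 each). On the log2 scale the ratio of Pgam2 to Pgam1 was 2.26 ± 0.75 in sham and -0.37 ± 1.44 in ischemia, a difference of -2.64. The groups did not overlap, and an exact permutation test (two-sided) gave p = 0.1, the smallest value that 3 samples against 3 allow, or 0.15 after Benjamini-Hochberg adjustment over 3 ratios. The summed FPKM of both genes was 1001 ± 70.9 in sham and 533 ± 94.9 in ischemia.

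Enolase makes phosphoenolpyruvate, with Eno3 encoding the muscle (beta) subunit and Eno1 the ubiquitous (alpha) subunit. Eno3 (chr10:57278307-57283653, plus strand) measured 285, 365 and 204 FPKM in sham and 234, 54.6 and 77.7 in ischemia. Ischemia replicates 2 and 3 were below every sham sample, but ischemia replicate 1 was above sham replicate 3, so the groups overlapped. The means were 285 ± 80.5 and 122 ± 97.7 FPKM (SD, n = 3 each), and the log2 fold change was -1.33 ± 0.62 (SE), 2.52-fold lower, with an edgeR adjusted p of 0.190. Leaving out ischemia replicate 1 brought it to -2.23 and past the threshold (edgeR adjusted p = 0.0324), again in the fit that called 7.98% of all tested genes lower.

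Eno1 (chr5:167288223-167299609, plus strand) measured 186, 362 and 237 FPKM in sham and 354, 832 and 419 in ischemia. Ischemia replicate 2 was far above the rest, and the groups overlapped only because sham replicate 2 (362) exceeded ischemia replicate 1 (354). The log2 fold change was 0.87 ± 0.45 (SE), 1.83-fold higher, with an edgeR adjusted p of 0.224. It was 0.47 without ischemia replicate 2. Rows for Eno1 pseudogenes took few reads: LOC685431 held 0.820% to 2.80% and RGD1563294 1.97% to 2.35% of the Eno1 count.

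Eno3 made up 60.5%, 50.2% and 46.2% of the enolase pair's summed FPKM in the sham samples and 39.8%, 6.16% and 15.6% in the ischemia samples. Eno3 was thus the smaller part in sham replicate 3 and in all ischemia samples. The mean share was 52.3% ± 7.36 in sham and 20.5% ± 17.4 in ischemia (SD, n = 3 each). The log2 ratio of Eno3 to Eno1 was 0.14 ± 0.43 in sham and -2.32 ± 1.67 in ischemia, a difference of -2.45. The groups did not overlap, with an exact permutation p (two-sided) of 0.1 (0.15 adjusted over the 3 ratios). Unlike the mutase pair, the enolase pair did not have a lower sum in ischemia, at 546 ± 157 FPKM in sham and 657 ± 204 in ischemia, and whether the pairs differ in this was not tested.

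**Figure D2:**
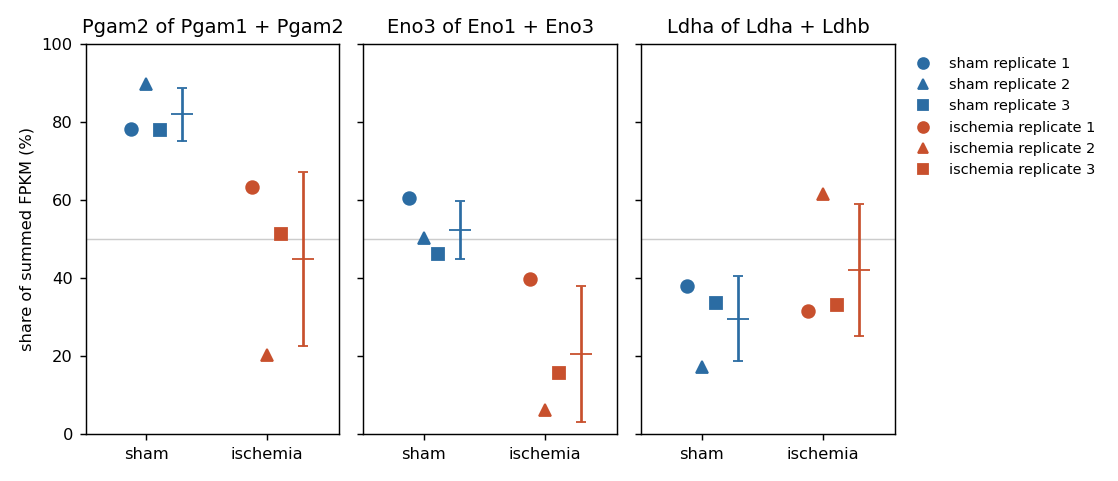
Share of the summed FPKM of an isozyme pair (%) that the first gene of the pair held in each sample, with the mean and SD of each group beside the points. For Pgam2 and for Eno3 the highest share in ischemia (63.3% and 39.8%) was under the lowest in sham (78.0% and 46.2%), whereas the share of Ldha in ischemia was 31.6%, 61.6% and 32.9% against 17.1% to 38.0% in sham.

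Lactate dehydrogenase is a tetramer of the muscle-type subunit Ldha and the heart-type subunit Ldhb. Ldha (chr1:102900286-102909707, plus strand) measured 615, 573 and 594 FPKM in sham and 857, 1137 and 684 in ischemia. Every ischemia sample was above every sham sample, as was the case for 23.6% of the tested genes, and the sham samples lay within a narrow range. The means were 594 ± 21.2 and 892 ± 228 FPKM (SD, n = 3 each), and the log2 fold change was 0.48 ± 0.24 (SE), which missed the threshold (edgeR adjusted p = 0.215). A processed pseudogene, RGD1562690, took reads equal to 3.08% to 4.38% of the Ldha count.

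Ldhb (chr4:176701983-176720012, minus strand) measured 1002, 2769 and 1176 FPKM in sham and 1851, 709 and 1393 in ischemia. Sham replicate 2 was the highest and ischemia replicate 2 the lowest, with the other samples mixed, so the groups overlapped widely. The log2 fold change was -0.47 ± 0.61 (SE; edgeR adjusted p = 0.612), and it turned to 0.31 without sham replicate 2 and was -0.15 without ischemia replicate 2. Ldha made up 38.0%, 17.1% and 33.6% of the pair in sham and 31.6%, 61.6% and 32.9% in ischemia. Only in ischemia replicate 2 was Ldha the larger part, and the log2 ratio differed by 0.84 between the groups (exact permutation test, two-sided, p = 0.6, also 0.6 after adjustment over the 3 ratios). That difference was 0.25 without ischemia replicate 2 and 0.36 without sham replicate 2. The ratio lay between -2.27 and -0.70 in sham and between -1.11 and 0.68 in ischemia.

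The spread of Ldhb in sham was seen beside the atrial genes. Sham replicate 2, with 252 FPKM of atrial genes, had 2769 FPKM of Ldhb and 108 of Pgam1, whereas sham replicates 1 and 3, with 48457 and 39432 FPKM of atrial genes, had 1002 and 1176 of Ldhb and 225 and 203 of Pgam1. The ventricular light chain genes Myl2 and Myl3 were split the same way, at 2795 and 9024 FPKM in sham replicate 2 and at 346 to 366 and 796 to 1021 in the other sham samples. Pgam2 was also highest in sham replicate 2, at 944 FPKM against 806 and 717. The part of atrial tissue in the group values was not tested. Without sham replicate 2, the log2 fold changes were -1.62 for Pgam2, -0.97 for Eno3, 0.43 for Pgam1 and 1.32 for Eno1.

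**Figure D3:**
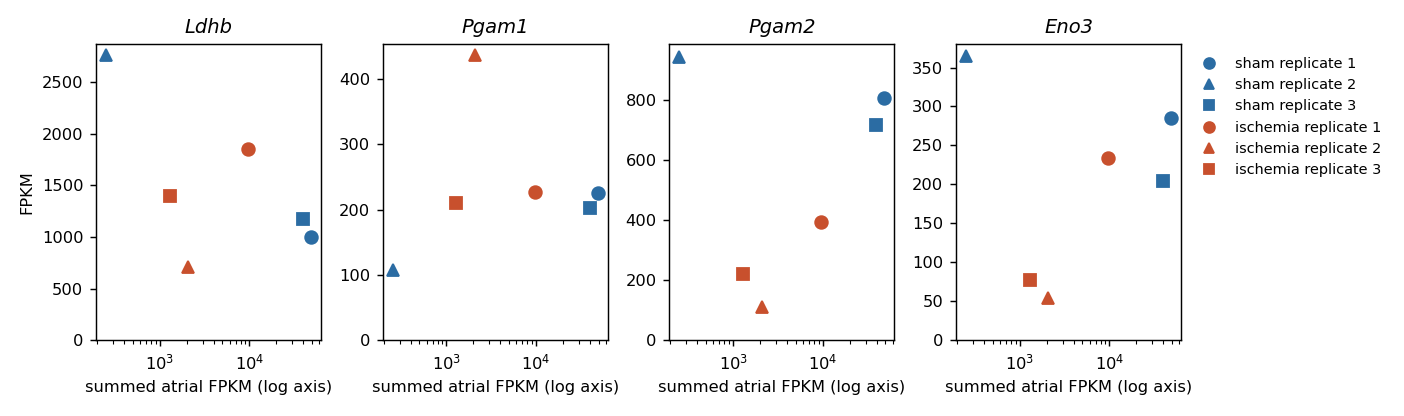
FPKM of Ldhb, Pgam1, Pgam2 and Eno3 against the summed FPKM of 6 atrial genes (log axis) in each sample, with sham in blue, ischemia in orange and symbols for the replicate number. Sham replicate 2 stood apart from the other sham samples in the atrial sum, Ldhb and Pgam1, and its Pgam2 level of 944 was above the 806 and 717 of the others.

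Aldolase cleaves fructose bisphosphate, and Aldoa is the form of muscle and most other tissues. Aldoa (chr1:198228387-198233588, minus strand) measured 1405, 2026 and 1502 FPKM in sham and 1745, 1439 and 1358 in ischemia. The groups overlapped, with sham replicate 2 the highest, and the log2 fold change was -0.24 ± 0.33 (SE; edgeR adjusted p = 0.631). Without sham replicate 2 it was 0.075. The triose phosphate isomerase gene Tpi1, which follows aldolase, was at -0.13 ± 0.38 (edgeR adjusted p = 0.835).

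The rows described as glyceraldehyde-3-phosphate dehydrogenase, the enzyme that reduces NAD+ and the usual reference in expression assays, were both named LOC108351137. The row at chr4:157676595-157679962 (minus strand) measured 1958, 2958 and 1850 FPKM in sham and 2286, 2132 and 2150 in ischemia. The sham samples enclosed the ischemia samples, and the log2 fold change was -0.17 ± 0.34 (SE; edgeR adjusted p = 0.746). The row at chr5:115649046-115650340 (plus strand) measured 658, 1364 and 639 FPKM in sham and 1268, 1007 and 684 in ischemia, also with overlap (log2 fold change -0.0067 ± 0.47; edgeR adjusted p = 0.993). Both were highest in sham replicate 2. On the GRCr8 build the RefSeq start of Gapdh lies on the minus strand of chromosome 4, as the chr4 row does here. Near-identical copies of this gene are known in rodent genomes, so how reads were split between the rows is uncertain.

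Phosphoglycerate kinase makes the first ATP of the pathway, and Pgk1 is its somatic form. Pgk1 (chrX:77263359-77279367, plus strand) measured 299, 370 and 286 FPKM in sham and 368, 769 and 379 in ischemia. Sham replicate 2 lay just above ischemia replicate 1, and ischemia replicate 2 was far above all others. The log2 fold change was 0.53 ± 0.35 (SE; edgeR adjusted p = 0.325) and was 0.16 without ischemia replicate 2.

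Pyruvate kinase makes pyruvate and ATP, and Pkm encodes its M-type forms, which counts per gene do not separate. Pkm (chr8:64481172-64502722, plus strand) measured 391, 508 and 367 FPKM in sham and 552, 870 and 552 in ischemia. Each ischemia sample exceeded each sham sample on this scale, but the groups overlapped in CPM after edgeR's scaling. The log2 fold change was 0.51 ± 0.31 (SE; edgeR adjusted p = 0.292), and it was 0.32 without ischemia replicate 2 and 0.79 without sham replicate 2. A row annotated as protein coding, AABR07044711, held counts equal to 11.0% to 16.1% of those of Pkm, and the pseudogene LOC100364062 held 2.34% to 4.53%, so the level of Pkm is uncertain by about these shares.

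Counted over the 9 genes, the FPKM of the groups did not overlap for Pkm and Ldha in the higher direction and for Pgam2 in the lower, against 23.6% and 15% of all tested genes. In CPM scaled by edgeR this left Ldha and Pgam2, against 22% and 19.1%. Ischemia replicate 2 was the highest of the 6 samples for 5 genes (Pgk1, Pgam1, Eno1, Pkm and Ldha) and the lowest for 3 (Pgam2, Eno3 and Ldhb). Sham replicate 2 was the highest for the remaining 4: Aldoa, Pgam2, Eno3 and Ldhb. Ischemia replicate 1 stood nearest to sham for Pgam2, Eno3 and Eno1.

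**Figure D4:**
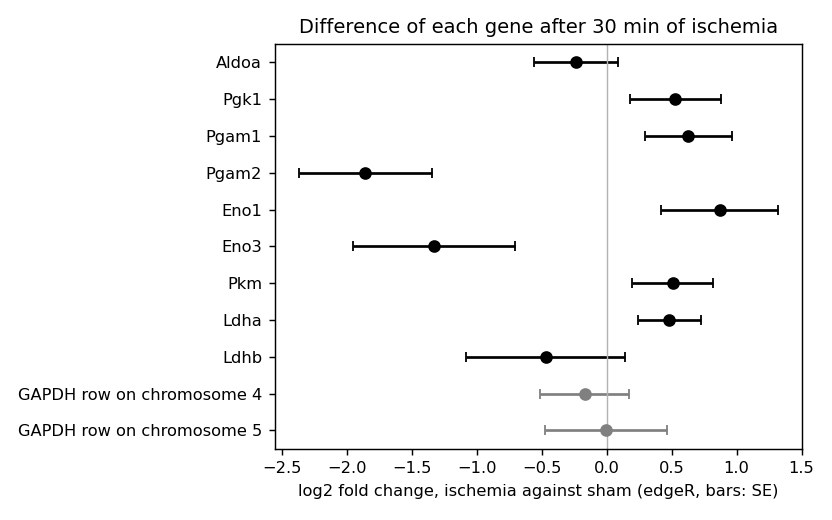
Log2 fold change of each gene in ischemia against sham (edgeR), with bars for the SE, in pathway order, and in grey the 2 rows described as glyceraldehyde-3-phosphate dehydrogenase. Pgam2 at -1.86 and Eno3 at -1.33 lay farthest below 0, and the values above 0 lay between 0.48 for Ldha and 0.87 for Eno1.

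The levels, which FPKM makes comparable between genes of different length, were ordered differently in the groups. In sham the means ran from Ldhb (1649) and Aldoa (1644), which overlapped, to Pgam2 (822), Ldha (594) and Pkm (422), and Aldoa, Pgam2 and Ldha were each separated from the next without overlap. Pkm overlapped with Pgk1, and Pgk1 (319), Eno3 (285), Eno1 (262) and Pgam1 (179) followed, each overlapping with the next. In ischemia the order was Aldoa (1514), Ldhb (1317), Ldha (892), Pkm (658), Eno1 (535), Pgk1 (506), Pgam1 (291), Pgam2 (241) and Eno3 (122), and no neighbours were separated. Among the 9 genes Pgam2 was thus at rank 3 in sham and at rank 8 in ischemia.

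The promoter windows of the mutase pair and of Ldha are shown because Pgam2 and Ldha were the genes whose groups did not overlap on either scale, and Pgam1 is the partner of Pgam2. The windows are the 250 bases before the RefSeq start on GRCr8, printed 5′ to 3′ on the gene's own strand, with matches in capitals. The capitals mark ACGTG on either strand (CACGT on the printed strand), the core of the element that hypoxia-inducible factor binds, and CAGCTG, which reads the same on both strands and is 1 form of the E-box that myogenic factors bind.
Pgam1 (chr1:250672902-250673151, plus strand): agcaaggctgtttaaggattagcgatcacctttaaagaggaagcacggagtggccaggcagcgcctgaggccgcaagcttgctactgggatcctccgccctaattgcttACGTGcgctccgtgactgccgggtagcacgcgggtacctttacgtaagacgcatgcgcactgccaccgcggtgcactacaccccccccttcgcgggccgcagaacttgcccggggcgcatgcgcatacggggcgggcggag
Pgam2 (chr14:84897875-84898124, minus strand): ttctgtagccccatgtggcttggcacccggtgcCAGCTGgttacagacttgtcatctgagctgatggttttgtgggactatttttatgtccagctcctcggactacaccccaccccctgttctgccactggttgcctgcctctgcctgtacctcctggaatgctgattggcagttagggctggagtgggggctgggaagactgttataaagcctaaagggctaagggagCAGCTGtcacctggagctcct
Ldha (chr1:106507842-106508091, plus strand): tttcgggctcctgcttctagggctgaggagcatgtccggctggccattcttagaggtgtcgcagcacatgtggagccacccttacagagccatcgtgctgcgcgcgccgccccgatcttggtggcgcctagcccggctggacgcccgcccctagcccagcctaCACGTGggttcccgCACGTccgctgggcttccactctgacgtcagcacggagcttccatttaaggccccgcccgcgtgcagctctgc

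In these windows Pgam1 held 1 ACGTG match, which began 141 bases before the start. Ldha held 3, beginning 87, 86 and 73 bases before the start, of which the first pair overlap on opposite strands as CACGTG. Pgam2 held no ACGTG but 2 CAGCTG matches, 217 and 21 bases before the start. Over 12 windows of 9 of the 10 genes in the RefSeq table, 4 held ACGTG (Aldoa at 1 of its 3 starts, Gapdh, Pgam1 and Ldha), against 16.6% of all 33469 windows. CAGCTG, chosen after the windows were read, was found in 1 of the 12, against 12.0% of all windows. The windows of Eno1, Eno3, Pkm and Ldhb held neither, which says only that these letters are not in them.

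Genes whose profile over the 6 samples was most like that of an isozyme were named by the root mean square difference of centred log2 CPM, among 5613 genes with a mean of at least 10 FPKM. Nearest to Pgam2 were Txlnb, which encodes the muscle protein beta-taxilin (0.106), Nqo2 (0.109) and Wipf3 (0.109). Txlnb measured 41.3, 39.2 and 35.2 FPKM in sham and 19.5, 5.70 and 10.5 in ischemia, low in the same samples as Pgam2. Nearest to Eno3 were Tmod4, a tropomodulin of striated muscle (0.135), Cdnf (0.183) and Pyroxd2 (0.191). Tmod4 measured 15.5, 23.9 and 14.2 FPKM in sham and 16.9, 3.74 and 5.01 in ischemia, with ischemia replicate 1 among the sham values as for Eno3. Nearest to Pgam1 were Gtf2e2 (0.0775), LOC100911576 (0.0836) and Tmem30a (0.0940). Nearest to Eno1 were AABR07052523 (0.118), Phlda1 (0.118) and the Pkm-like row AABR07044711 (0.155).

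The other isozymes of the same steps were few. Of 12 named genes, 11 were found and 5 were tested. None passed with edgeR, DESeq2 or limma, 1 had an unadjusted edgeR p under 0.05 (Bpgm), and the median log2 fold change was -0.56. The range ran from -0.69 for Ldhd, a mitochondrial D-lactate dehydrogenase, to 0.86 ± 1.70 for Eno2, the neuronal enolase. Eno2 had counts of 741, 358 and 1393 in sham and 0, 3795 and 985 in ischemia. A row described as like gamma-enolase had 0, 315 and 1407 in sham and 995, 3296 and 988 in ischemia, so reads of these 2 rows may have been split. Bpgm, which makes bisphosphoglycerate, was at -0.61 ± 0.24 (edgeR adjusted p = 0.140).

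The upper part of glycolysis was tested for 14 of 15 named genes. Hk3, a hexokinase, was the only one past the threshold, with 0.0863, 0.140 and 0.197 FPKM in sham and 2.90, 11.7 and 4.59 in ischemia (log2 fold change 5.35, edgeR adjusted p = 0.0272). The list's median was 0.26. Its groups did not overlap for 4 genes in each direction, against 23.6% of all tested genes higher and 15% lower. DESeq2 called 3 higher and 4 lower, against 14.8% and 12.5% of all tested genes. Neutrophil and monocyte genes were higher in the same samples, with 12 of 16 past the threshold, a median of 4.13 (the same with Retnlg at the bound below) and summed FPKM of 180 to 276 in sham against 1550, 9837 and 2448 in ischemia. Of them Retnlg had no count in sham and was at least 172-fold higher against a floor of 3 counts per sham library, and Fcgr3a was the lowest at 1.21 (edgeR adjusted p = 0.301). Ischemia replicate 2, with the most of these transcripts, was also the sample with the most Eno1, Pgam1, Pgk1, Pkm and Ldha, and the part of these cells in the values was not tested. All calls over these lists were lost when sham replicate 1, 2 or 3 or ischemia replicate 3 was left out, where edgeR called 0 genes in the whole table, although 13 or 14 of the 16 neutrophil and monocyte genes then still had an unadjusted edgeR p under 0.05.

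Genes known to be induced by hypoxia, as Ldha, Pgk1 and Eno1 are, were tested for 19 of 20 named genes. The edgeR test passed Hmox1, a heme oxygenase (4.55, adjusted p = 0.0292), and Ddit4, an inhibitor of mTOR signaling (1.48, adjusted p = 0.0327). DESeq2 called 5 of the 19 genes higher, against 14.8% of all tested genes, and limma on log2(FPKM + 0.1) called 3, against 6.09%. At an unadjusted edgeR p under 0.05 there were 7, all higher, against 18.2%. The median was 0.56. Of the 19 genes, 15 were above 0, against 49.9% of all tested genes, and 6 were higher without overlap, against 23.6%. Slc2a1, Hk2 and Pfkfb3 are in this list and in that of upper glycolysis. The range ran from -0.098 for Mxi1 to 5.50 for the lactate exporter gene Slc16a3, which missed the threshold (edgeR adjusted p = 0.0517).

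Adult cardiomyocyte genes gave no gene past the edgeR threshold among 14 tested, while 3 had an unadjusted p under 0.05 and DESeq2 called 3 lower. Of these 14, 13 had a log2 fold change below 0 and 5 were lower without overlap, with a median of -0.69. Over all tested genes, 50.1% were below 0, 15% were lower without overlap and DESeq2 called 12.5% lower. The range ran from -2.38 for Myh6, the adult rodent myosin heavy chain (edgeR adjusted p = 0.0510), to 0.20 for Myl3. Their summed FPKM was 40702, 66886 and 38765 in sham and 39683, 20291 and 36386 in ischemia. Ischemia replicate 2 was thus lowest, as for Pgam2 and Eno3. Ischemia replicates 1 and 3 were near sham replicates 1 and 3 in the sum, but single genes differed in both directions. In these samples Myh6 was at 1328 and 886 FPKM in ischemia against 4323 and 3899 in sham. Myl3 was at 5691 and 5780 against 796 and 1021. The Pgam2 value of -1.86 lay below the list's median and above Myh6, and the part of cardiomyocyte RNA in it was not tested. Fast skeletal muscle, another source of Pgam2 and Eno3, had a summed level of at most 13.5 FPKM in any sample: 3 of 13 named genes were tested, none passed with edgeR (1 at an unadjusted p under 0.05, 1 called by DESeq2), and the values ran from -0.21 for Tnnt3 to 1.98 for Mybpc2 with a median of -0.070. Red cell genes summed to 4289 to 7862 FPKM in sham and 5140 to 9987 in ischemia, with 5 tested, none past the threshold with edgeR, DESeq2 or limma, 0 at an unadjusted edgeR p under 0.05 and a median of 0.092. Of the 6 atrial genes none passed with edgeR, 2 had an unadjusted p under 0.05, DESeq2 called 1, and the median was -3.60.

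**Figure D5:**
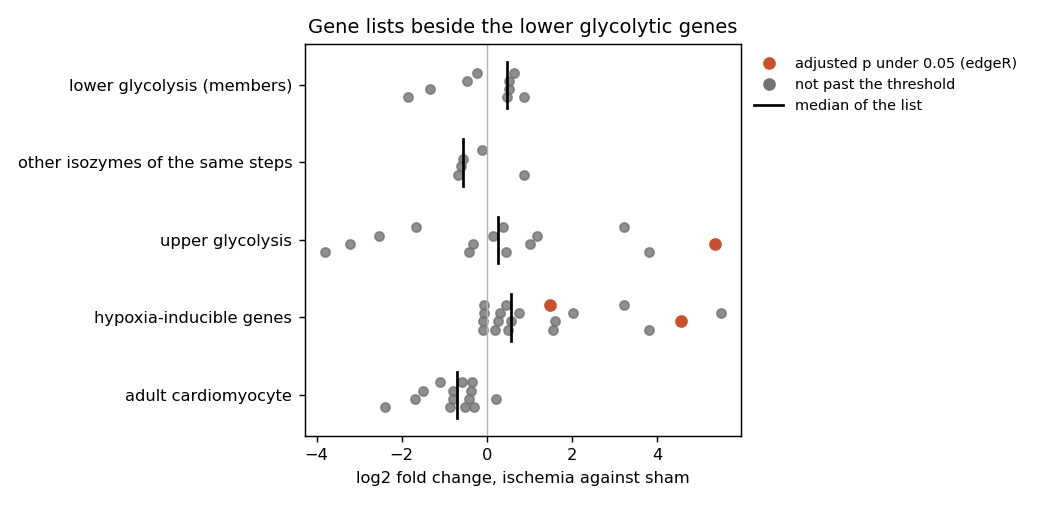
Log2 fold change of each tested gene in the lower glycolytic set and in 4 lists beside it, with a black line at the list's median and orange points for genes past the edgeR threshold. The lower glycolytic genes lay between -1.86 and 0.87, the hypoxia-inducible genes mostly above 0 and the adult cardiomyocyte genes mostly below 0.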

How the data were processed

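RNA was sequenced from myocardial tissue in 3 sham and 3 ischemia samples, grouped by their labels. A single table was deposited by the authors. It held whole read counts per gene, not normalized, and FPKM that the authors had derived from them, in which a gene with no read was listed at 0.0001. STAR and HTSeq are named in the submitters' processing notes without versions, and the genome build was not given in the sources used here. Positions of the genes are those the table lists. How reads of gene copies were assigned is not stated.

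Genes whose mean FPKM reached 0.5 were tested with edgeR 4.0.16 (quasi-likelihood, TMM scaling, two-sided, no covariates) on the counts, with Benjamini-Hochberg adjustment over 13964 genes and a threshold of 0.05. At 68529126 to 79591989 counts per sample, 3 counts equal 0.0377 to 0.0438 CPM, which covers counting error only. Ratios were taken per sample and compared by exact permutation tests. The script was tested on simulated data. Members and gene lists were chosen with earlier results of these data known. By the naming rule, the members, the 3 genes nearest in profile to each mutase and enolase gene, the called genes and ends of each list, and Tpi1 and Bpgm were named. The gene at 1 end of a list is not reported here. Myl2 and Myl3 beside the atrial genes, and the copies of members, were named after their values were seen. Alternatives used limma 3.58.1, DESeq2 1.42.0, other scalings and filters, the replicate block and each sample left out. Adding the copies to the members was chosen after seeing the data. R 4.3.3, Python 3.11.15 and matplotlib 3.10.9 were used.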

Additional observations from a re-analysis of the deposited data

How the results depend on the processing

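Across 18 alternatives, 156 of 162 log2 fold changes of the 9 genes kept their direction and their side of the threshold. Pgam2 ranged from -2.41 to -1.50 (edgeR, limma or DESeq2 adjusted p 0.00244 to 0.204) and passed with DESeq2 (-1.89), with limma on log2(FPKM + 0.1) (-1.94) and without ischemia replicate 1. Eno3 ranged from -2.23 to -0.96 (adjusted p 0.0324 to 0.395) and passed only without ischemia replicate 1. No gene of the 9 passed in the higher direction under any of them, and the number that passed in the lower direction was 1 with DESeq2, 1 with that limma fit and 0 to 2 with a sample left out. Without sham replicate 2, the values of Aldoa (0.0748), Ldhb (0.3129) and the glyceraldehyde-3-phosphate dehydrogenase row on chromosome 4 (0.217) turned sign, and their range with a sample left out began at -0.3885, -0.8019 and -0.3507. The row on chromosome 5 turned to 0.1583 with total counts only, 0.2026 and 0.2024 with limma, 0.004 with no filter, 0.1173 under the replicate block, and lay between -0.2583 and 0.6133 with a sample left out (0.021 without ischemia replicate 2, 0.1716 without ischemia replicate 3). The lowest values of Pgk1, Pgam1, Eno1 and Pkm (0.16, 0.28, 0.47 and 0.32) came without ischemia replicate 2.

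Over all genes, 723 were called higher and 214 lower. DESeq2 called 2071 and 1742, total counts gave 86 lower and no filter 93 lower, and leaving out a sample gave 0 to 1490 higher and 0 to 1115 lower. No gene was called in either direction under the replicate block, where 3349 had an unadjusted edgeR p under 0.05, or without sham replicate 1, 2 or 3 or ischemia replicate 3, where 3020 to 3809 did. The replicate numbers share no source, and same-numbered samples deviated from their group means with correlations of -0.0561, -0.094 and -0.196, so they were not taken as pairs. Pgam2 to Pgam1 differed by -3.22 to -1.83, Eno3 to Eno1 by -3.32 to -1.65 and Ldha to Ldhb by 0.25 to 1.15 with a sample left out, and none reversed. Within replicate numbers the smallest exact permutation p is 0.25. The precision is limited by the 3 samples a group and the spread between them, and the causes of these shifts were not tested.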
